A study of Danio rerio with 7 samples.

Results

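The late clusters are 150 features measured in RNA of zebrafish (Danio rerio) tail fin. They were high at both cut edges 72 h post amputation and low or listed at 0 before that and in the control. They were taken from 433380 features whose levels the authors deposited as FPKM, a fragment count divided by feature length and library size. Levels were put on the scale log2(FPKM + 1), which understates differences between low values. For each cluster the score was the lower of the 2 values at 72 h minus the highest of the 5 other libraries, and the 150 highest scores were kept. They were thus chosen by their FPKM at 72 h and in the other 5 libraries, and these levels are given below as a description with no test.

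RNA was sequenced from 7 libraries with 1 library in each group. The posterior cut edge (PCE) and the anterior cut edge (ACE) of cut tail fins were each collected at 24, 48 and 72 h post amputation, and 1 further tail fin library was labelled control, with no edge or time. The labels give no strain, genotype, age or drug treatment, and do not say how many fish went into a library. With 1 library per group, differences between libraries have no replicate check, no p-value is given, and a difference counts as such when it is at least 1 on the log2(FPKM + 1) scale.

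After a zebrafish fin is cut, epidermis closes the wound, a blastema of proliferating cells gathers beneath it, and outgrowth then rebuilds bone rays, vessels, nerves and skin. Calcineurin, which the title of the study names, is a calcium-dependent phosphatase, and its inhibition is known to make zebrafish fins overgrow. None (0) of the 433380 identifiers matched an entry of the zebrafish reference tables, and the deposited file holds no gene names. The features are called clusters after their identifiers, no cluster is given a role, and the tissue label was not checked against marker genes. No sequences were available, so it was not checked whether a cluster is a zebrafish transcript. In bulk tissue, fewer cells of a type and less RNA per cell cannot be told apart.

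Few clusters in the table behaved this way. A score of at least 1 was reached by 893 of the 338845 clusters above 0 in any library (0.264%), and the late clusters are the top 150 of these. Their scores ran from 8.93 down to 2.34, with a median of 3.03, and 8 were over 5. The last 2 inside were Cluster-118330.199062, with a PCE 72 h level of 39.3 FPKM and an ACE 72 h level of 4.05 FPKM, and Cluster-24904.0, at 27.5 and 4.05 FPKM in the same order, both with a score of 2.34. The first 2 outside, Cluster-118330.246384 and Cluster-118330.3655, each had 6.66 FPKM at the posterior and 4.02 FPKM at the anterior edge at 72 h, with a score of 2.33. All 4 were listed at 0 in the other 5 libraries, so the bound falls among clusters of one kind.

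**Figure D1:**
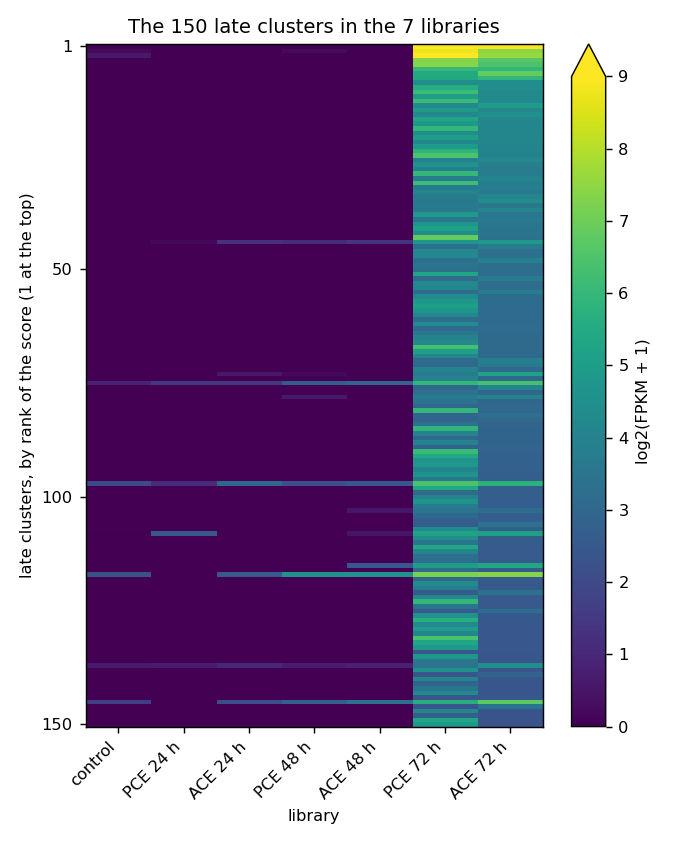
Levels of the 150 late clusters, 1 per line in order of their score, in the 7 libraries, as log2(FPKM + 1); colours end at 9. Both 72 h columns are filled from top to bottom, while the 5 other columns are dark except for 14 clusters.

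Most late clusters lay under 20 FPKM, and a handful lay far higher. Of the 68026 clusters above 0 in both 72 h libraries, 15322 reached the lowest late level (4.05 FPKM) at both edges. In FPKM the late clusters were thus not among the lowest of the table. At 72 h the median late cluster stood at 17.5 FPKM in PCE (range 4.12 to 3805) and at 8.09 FPKM in ACE (range 4.05 to 485). Under 20 FPKM lay 85 of the 150 in PCE and 128 in ACE, and only 5 exceeded 100 FPKM at both edges. Summed over the 150, the levels made up 0.416% of the total FPKM of PCE 72 h and 0.175% of that of ACE 72 h. The summed level was 8991 FPKM in PCE 72 h and 3067 FPKM in ACE 72 h, against 8.15 to 50.2 FPKM in the 5 other libraries.

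Cluster-118330.206391 had the highest score and the highest mean level of the late clusters. Its 72 h level was 3805 FPKM in PCE, against 485 FPKM in ACE, with a listed 0 everywhere else. It alone made up 42.3% of the summed level in PCE 72 h and 15.8% of that in ACE 72 h. The ratio of the sums, PCE over ACE, was 2.93 with it and 2.01 without it.

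The next 3 by score were also among the 5 over 100 FPKM at both edges. Cluster-118330.33904 had 433 FPKM at the posterior and 173 FPKM at the anterior edge at 72 h, with traces of 0.17 FPKM in PCE 48 h and 0.16 FPKM in the control and a listed 0 elsewhere. Cluster-118330.222654 had 754 FPKM at the posterior and 195 FPKM at the anterior edge, and its one trace outside 72 h was 0.55 FPKM in the control. Cluster-118330.51333 had 156 FPKM at the posterior and 100.4 FPKM at the anterior edge, and no value outside 72 h. All 4 leading clusters were higher in PCE 72 h than in ACE 72 h, by 0.63 to 2.97 on the log2(FPKM + 1) scale.

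At 72 h the late clusters leaned to the posterior edge. PCE 72 h was higher than ACE 72 h by at least 1 on the log2(FPKM + 1) scale in 67 of the 150 (44.7%), lower by as much in 6 (4.0%), and within that range in 77. By any amount, 112 were higher in PCE and 38 lower. The median PCE minus ACE difference was 0.89, the middle of the distribution ran from -0.03 (lower quartile) to 1.79 (upper quartile), and the extremes were -1.52 and 4.0. The FPKM ratio, PCE over ACE, had a median of 1.95 and a range of 0.330 to 19.4. A difference of at least 2 (4-fold) was seen in 24 clusters, all of them higher in PCE. That count was not made over all clusters, so nothing is read from it.

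Clusters at large did not share this lean on the deposited scale. Of the 68026 clusters above 0 in both 72 h libraries, PCE exceeded ACE by at least 1 in 15.7% and lay below it by as much in 19.5%, with a median difference of -0.11. By any amount, 30650 of them were higher in PCE and 37157 lower. Of the 15322 clusters that reached the lowest FPKM of any late cluster (4.05) at both edges, the shares were 13.2% higher and 25.1% lower, with a median of -0.30. The rule treats both edges alike, but the 72 h libraries differ in how many clusters they held above 0. Whether the rule bears on the direction of the lean was not tested. The rule admits a cluster on its lower value, which was the ACE value in 112 of the 150. That lower value enters the score while the higher one is free.

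**Figure D2:**
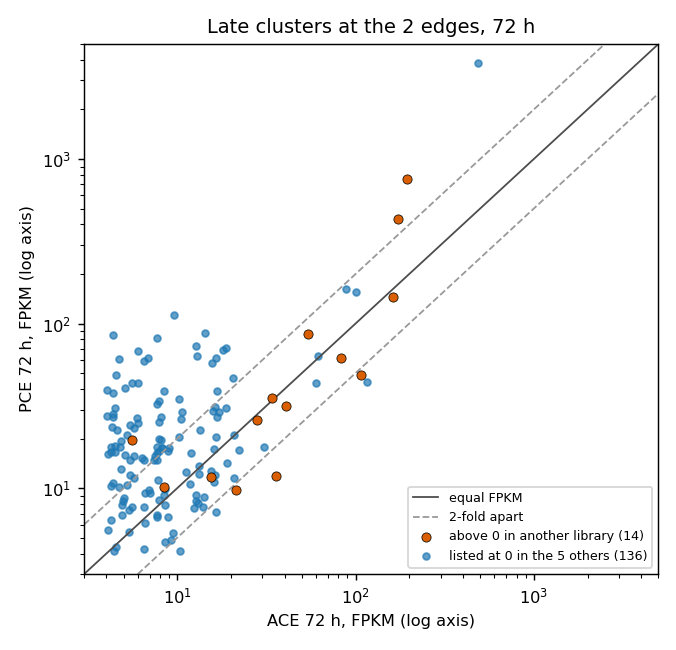
FPKM of each late cluster in PCE 72 h (vertical) and ACE 72 h (horizontal), both on log axes; the solid line marks equal FPKM and the dashed lines 2-fold. Most of the 136 clusters listed at 0 elsewhere lie above the solid line, while the 14 with a value in another library lie on both sides of it.

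The posterior lean was shared by weaker clusters of the same kind. Among the 743 clusters with a score of at least 1 that were not late clusters, 34.6% were higher and 4.85% lower in PCE, with a median of 0.57. Among the 1684 clusters that were above 0 at both edges of 72 h, listed at 0 in all 5 other libraries and not late clusters, 34.7% were higher and 2.38% lower, with a median of 0.62. On this scale, which understates differences between low values, the share higher in PCE was thus larger among the late clusters than in either set. As a plain FPKM ratio, PCE over ACE, the median was 1.95 for the late clusters, 1.69 for the 743 and 2.72 for the 1684. The order of the sets thus depended on the scale, and no test of it was made. Within the 150, differences in either direction were fewer at the top of the ranking. The ranking rests on the lower 72 h value and leaves the higher one free, so this order may follow from the rule and nothing is read from it. Ranks 1 to 50 held 16 clusters higher in PCE and 1 lower (median 0.68), ranks 51 to 100 held 24 and 2 (median 0.99), and ranks 101 to 150 held 27 and 3 (median 1.12). Of the clusters that differed by at least 1, the share higher in PCE did not rise down the ranking, with 94.1%, 92.3% and 90% in the 3 groups of ranks.

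**Figure D3:**
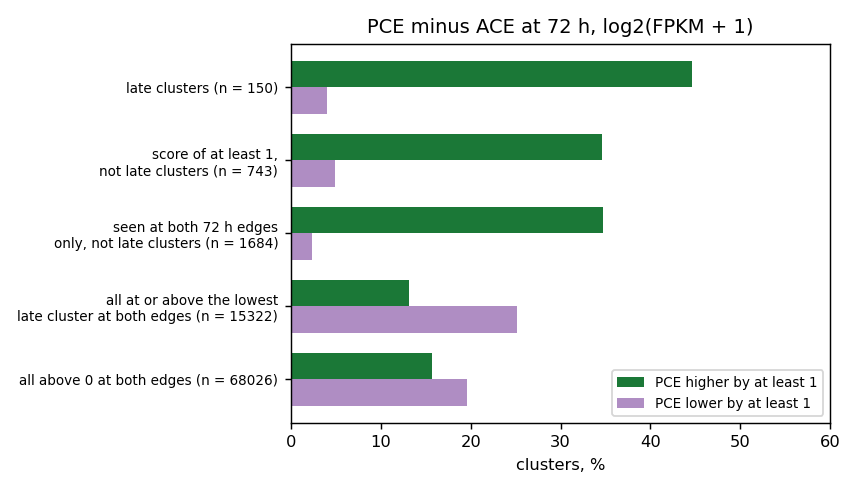
Share of clusters in which PCE 72 h was higher (green) or lower (purple) than ACE 72 h by at least 1 on the log2(FPKM + 1) scale, for the late clusters and 4 other sets. The late clusters stand at 44.7% higher and 4.0% lower, and the order of the 2 bars is the reverse in the 2 sets at the bottom on this deposited scale; median-of-ratios scaling turns both round, and quantile normalization turns round the lowest set.

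Scaling bears on the size of this lean, and on the sign of the balance over all clusters. With median-of-ratios scaling of the same 150 clusters, PCE was higher in 97 and lower in none (0), with a median of 1.54, while that scaling raised the median over all clusters above 0 at both edges by 0.35, to 0.25. With quantile normalization, which raised that median by 0.47, to 0.36, PCE was higher in 72 late clusters and lower in 6, with a median of 0.91. Set against clusters that reached the lowest late level at both edges, the median of the late clusters was higher by 1.2 on the deposited scale, by 1.2 with median-of-ratios scaling and by 1.17 with quantile normalization. Against all clusters above 0 at both edges it was higher by 1.0, 1.30 and 0.55 in the same order.

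The 72 h libraries also differed in how many clusters they held above 0, and perhaps in depth, which is not stated. The PCE 72 h library held 96680 clusters above 0 and ACE 72 h held 181371. From the steps between low values, 1 read was estimated to be worth 1.48 times as much FPKM in PCE 72 h as in ACE 72 h (0.57 on the log2 scale). The estimate rests on clusters at 0.15 to 0.3 FPKM in ACE 72 h, below the level of any late cluster. Where it holds, a cluster with equal reads at both edges would be listed higher in PCE by that amount. Whether it holds at the levels of the late clusters was not tested. Taking out this amount moves every cluster alike. Where the estimate holds, taking it out undoes the division by library size. What is left is an estimated ratio of reads and not a corrected edge balance. The median log2 ratio is then 0.39 for the late clusters (0.96 in FPKM), with 48 higher in PCE by at least 1 and 21 lower. For all clusters above 0 at both edges it is -0.79 (-0.22 in FPKM). For those that reached the lowest late level it is -0.90 (-0.33 in FPKM). The late clusters exceeded these sets by 1.18 and 1.29. A constant shift cannot change these differences, so nothing is read from them about depth. The part of depth in the lean was not tested.

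The clusters at the posterior end of the range were faint at the anterior edge. Cluster-15200.0 had 84.9 FPKM at the posterior and 4.38 FPKM at the anterior edge, a difference of 4.0. Cluster-15819.0 had 112.8 FPKM at the posterior and 9.59 FPKM at the anterior edge (3.43), and Cluster-118330.109491 had 61.1 and 4.69 FPKM in the same order (3.45). None of the 3 had a value outside 72 h. Their ACE levels lay near the lowest that the rule admitted, except for Cluster-15819.0.

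The anterior end of the range was shorter. Cluster-118330.202697 had 11.8 FPKM at the posterior and 35.6 FPKM at the anterior edge, a difference of -1.52, with 0.15 FPKM in PCE 48 h and 0.51 FPKM in ACE 24 h. Cluster-118330.48084, the seventh by score, had 44.3 FPKM at the posterior and 116 FPKM at the anterior edge (-1.37). Cluster-118330.130834 stood at 4.12 and 10.3 FPKM in the same order (-1.15). The last 2 had no value outside 72 h. In between, the edges were nearly level in Cluster-118330.215373, with 21.1 FPKM at the posterior and 20.9 FPKM at the anterior edge, and in Cluster-17809.0, with 5.43 and 5.38 FPKM.

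A signal outside 72 h, at an earlier time or in the control, was rare among the late clusters. In all 5 other libraries 136 of the 150 were listed at 0, against 2.68% of the clusters above 0 in both 72 h libraries and 0.888% of those that reached the lowest late level at both edges. The rule fixes this count, since any cluster at that level and listed at 0 elsewhere scores high enough to enter, so nothing is read from it. Above 0 were 5 late clusters in PCE 24 h and 7 in ACE 24 h, 9 in PCE 48 h and 9 in ACE 48 h, and 8 in the control. Of the clusters that reached the lowest late level at both edges, 85.1% to 96.0% were above 0 in each of these libraries. An exact 0 in FPKM can also stand for a level too low to be seen, and the number of reads behind it is not known here.

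The 14 late clusters with a value outside 72 h were spread over all 5 other libraries. In 1 or both libraries of 48 h 12 of the 14 were above 0, in those of 24 h 8 were, and in the single control library 8. All clusters above 0 in both 72 h libraries were also seen more often at 48 h (73.9% in PCE and 82.7% in ACE) than at 24 h (59.2% in PCE and 72.4% in ACE), and in 78.3% in the control, so nothing is read from the order of these counts. For 3 clusters 48 h was the only other time with a value. The highest value outside 72 h came from a 48 h library in 8 clusters, from a 24 h library in 4 and from the control in 2. It was at least 1 FPKM in 8 clusters. In 6 clusters both 48 h libraries had a value, and in 5 of these ACE 48 h was the higher. Of all 77951 clusters above 0 at both edges of 48 h, ACE was the higher in 40534 and PCE in 37201. Nothing is read from so few late clusters. The lower 72 h value exceeded the highest other value by 5.62 to 1015 times, with a median of 12.8 times.

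Cluster-118330.47866 had the strongest earlier signal. The control gave 3.67 FPKM. Its posterior levels at 24, 48 and 72 h were a listed 0, 23.8 FPKM and 145 FPKM, and its anterior levels were 4.66, 22.7 and 162 FPKM. It is the fifth of the late clusters over 100 FPKM at both edges, and both edges gave a close level at 48 and at 72 h.

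Cluster-118330.24651 and Cluster-118330.99590 came next. For Cluster-118330.24651 the control gave 2.2 FPKM, the posterior levels at 24, 48 and 72 h were a listed 0, 5.95 FPKM and 49 FPKM, and the anterior levels were 3.43, 8.72 and 107 FPKM. ACE was the higher edge at every time in that cluster. For Cluster-118330.99590 the control gave 3.04 FPKM, the posterior levels at the 3 times were 1.11, 3.54 and 86 FPKM, and the anterior levels were 7.24, 4.46 and 53.8 FPKM. Here ACE was the higher edge at 24 and 48 h, and PCE at 72 h.

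**Figure D4:**
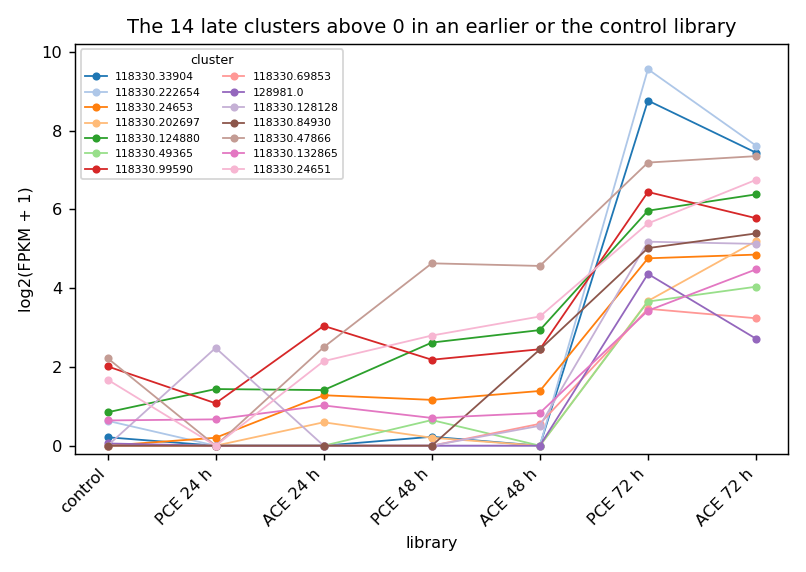
Levels of the 14 late clusters with a value above 0 outside 72 h, as log2(FPKM + 1), in the 7 libraries; a line joins the values of 1 cluster and is no time course, since both edges alternate along the axis. At 48 h only Cluster-118330.47866 exceeds 20 FPKM, and all 14 are highest in the 72 h libraries.

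The clusters with a value outside 72 h, the control included, differed from the rest in level and edge balance. The 14 had a median of 33.3 FPKM in PCE 72 h and 38.3 FPKM in ACE 72 h, and the 136 listed at 0 elsewhere had 17.1 FPKM in PCE 72 h and 7.84 FPKM in ACE 72 h. A cluster with a signal elsewhere needs a higher 72 h level for the same score, so the difference in level follows from the rule. PCE exceeded ACE by at least 1 in 3 of the 14 and lay below it by as much in 3, with a median difference of -0.13. The corresponding counts among the 136 were 64 and 3, with a median of 0.92. No test was made of this split, and 14 clusters are too few to place their balance closely. Nor is such a split particular to the late clusters. Of the 1684 others seen at both 72 h edges only, 34.7% were higher and 2.38% lower in PCE. Over all clusters above 0 at both edges the shares were 15.7% and 19.5%.

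The late clusters were also divided by their identifiers, which the rule did not use. An identifier has a first and a second number, and no source used here says what they stand for. The first number 118330, carried by 58.6% of the table, was carried by 100 of the 150 late clusters (66.7%). Of the clusters that reached the lowest late level at both edges it was carried by 97.7%, of those above 0 at both edges by 80.7%, and of those seen at both 72 h edges only by 54.0%. The other 50 late clusters had 50 different first numbers, and 40 of these belonged to no second cluster of the table. Of these 50, 30 were higher and none (0) lower in PCE 72 h by at least 1, with a median of 1.30. Of the 100 with the shared number, 37 were higher and 6 lower, with a median of 0.60. These edge counts were not made over all clusters with and without the shared number. Whether the contrast is particular to the late clusters is therefore not known. Of the 14 clusters with a value outside 72 h, 13 carried the shared number.

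A few late clusters were neighbours by their second number. Within the shared first number, 4 pairs lay at most 10 apart. These pairs were singled out after their values were seen. Cluster-118330.51334 had 163 FPKM at the posterior and 88.2 FPKM at the anterior edge, close to its neighbour Cluster-118330.51333, and no value outside 72 h. Cluster-118330.24653, near Cluster-118330.24651, had a listed 0 in the control, posterior levels of 0.15, 1.24 and 26.1 FPKM at the 3 times and anterior levels of 1.43, 1.62 and 27.9 FPKM. Both members of that pair thus had values at 24 and 48 h. Cluster-118330.10873, Cluster-118330.10881 and Cluster-118330.10885 were listed at 0 outside 72 h, and their PCE minus ACE differences were -0.07, -0.15 and -0.45. Over the table, the edge differences at 72 h of clusters with consecutive second numbers had a Pearson's r of 0.198 (15959 pairs above 0 at both edges), against 0.012 for numbers 1000 apart (13468 pairs). Clusters are not independent, and near-identical transcripts may be split between neighbouring clusters, so such pairs may be 1 signal counted more than once.

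Late levels were often values that recur in the table. Under 20 FPKM, the value of a late cluster, to 2 decimals, was carried on average by 21.4 clusters in PCE 72 h, against 14.3 clusters at each of the neighbouring values, a ratio of 1.49. In ACE 72 h it was carried by 42.0 clusters, against 28.1 at each neighbouring value, a ratio of 1.5. For all clusters between 4.05 and 20 FPKM these ratios were 1.16 in PCE 72 h and 1.16 in ACE 72 h. Cluster-136870.0 and Cluster-89478.0, named for this after their values were seen, both had 17.5 FPKM at the posterior and 8.19 FPKM at the anterior edge. Cluster-118330.143431, Cluster-118330.116691, Cluster-107738.0 and Cluster-148858.2, also named after their values were seen, all had 7.93 FPKM at the anterior edge. Their posterior levels were 8.43, 16.87, 25.3 and 33.73 FPKM, near whole multiples of the first. Such steps may mark small numbers of reads, which would make levels and edge ratios coarse. If 8.43 and 7.93 FPKM were 1 read each, 1 read would be worth 1.06 times as much in PCE, against the 1.48 estimated above. Which value applies to the late clusters was not tested. How many late clusters show such steps was not counted. The number of reads behind a late cluster is not known, and the origin of the recurring values was not tested.

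The same rule applied to the other 2 times gave sets of 150 clusters that were high at both edges at 24 h or at 48 h only. A score of at least 1 was reached by 1931 clusters at 24 h, 2182 at 48 h and 893 at 72 h. Within the 150 the scores ended at 3.5, 3.19 and 2.34, so the late set reached farthest down. Its median levels, 17.5 FPKM in PCE and 8.09 FPKM in ACE, were also below those of the 24 h set (80.9 and 28.5 FPKM) and the 48 h set (22.6 and 14.5 FPKM). Listed at 0 in the 5 other libraries were 98 clusters of the 24 h set, 142 of the 48 h set and 136 of the 72 h set.

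All 3 sets leaned to the posterior edge at their own time. PCE was higher by at least 1 in 98, 45 and 67 clusters at 24, 48 and 72 h, and lower by as much in 4, 7 and 6. Of all clusters above 0 at both edges, PCE was higher in 19.0% and lower in 13.7% at 24 h, and higher in 11.0% and lower in 10.3% at 48 h. The median difference of the sets was 1.33, 0.42 and 0.89 at 24, 48 and 72 h. The order of the 3 sets depended on the scale. Quantile normalization gave medians of 0.36, 0.07 and 0.91, while size factors by median of ratios put them at 1.56, 0.63 and 1.54. The worth of 1 read in PCE over ACE was estimated, as a log2 value, at 0.63, -0.12 and 0.57 for the 3 times. With that amount taken out, the median log2 ratios of the sets were 0.73, 0.56 and 0.39. As such an amount moves all clusters of a time alike, the sets are set here against all clusters above 0 at both edges of that time. The median log2 ratio of FPKM of the set exceeded theirs by 1.2, 0.51 and 1.18 at 24, 48 and 72 h. A constant shift cannot change this excess, so nothing is read from it about depth. The medians of the sets were above 0 at all 3 times. The 72 h set came first with quantile normalization but not on the deposited scale, and last with the worth of 1 read taken out. Each set was chosen by the values compared here, so this is a description. The 24 h set rests on PCE 24 h, a library in which 29.3% of the total FPKM lay in clusters seen nowhere else, against 1.96% to 7.45% in the other 6.

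**Figure D5:**
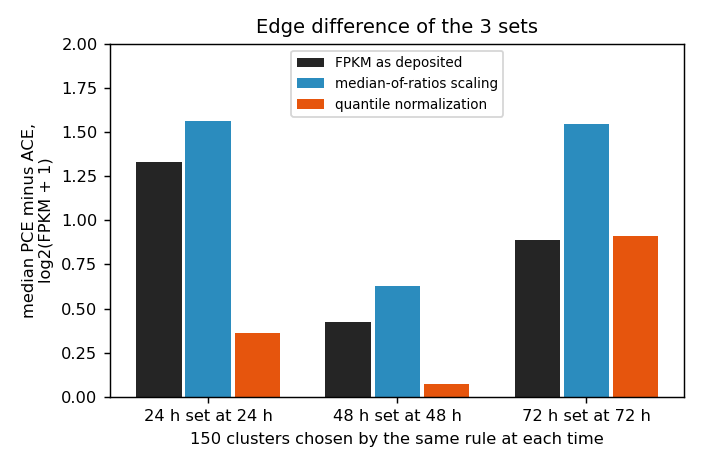
Median PCE minus ACE difference, on the log2(FPKM + 1) scale, of the 150 clusters that the same rule picks at 24, 48 and 72 h, each at its own time; bars are FPKM as deposited (black), after median-of-ratios scaling (blue) and after quantile normalization (orange). All 9 medians are above 0, and the 72 h set is the highest after quantile normalization only.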

How the data were processed

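Trizol was used to extract the RNA and an NEBNext Ultra kit to prepare the libraries, per the labels' protocols. The authors deposited 1 table of FPKM values with 1 column per library and 2 decimals. HISAT2 2.0.5, HTSeq 0.9.1 and edgeR are named in the submitters' processing notes, with no role or order. No source used here states the genome build, the annotation or how clusters were formed, and read counts per library are unknown.

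From these values log2(FPKM + 1), scores, differences and counts were computed in Python 3.11.15 with numpy 2.4.6, pandas 2.3.3 and matplotlib 3.10.9. No minimum level was applied. Ties in the score were ordered by the mean FPKM. The rule and the scalings were run on simulated data in which the planted late clusters stood well clear of the rest. That run checks the computation only and says nothing about clusters under 20 FPKM, as most of those here were. Named clusters are the 4 with the highest score, the 3 with the highest and the 3 with the lowest edge difference, the 2 with the smallest, the 3 with the highest value outside 72 h, the 2 with the highest mean, and the last 2 inside and the first 2 outside the 150. Pairs that share a first number other than the most used one were to be named too, and there were none. The members and lists were chosen with earlier results of these data known. Marker genes could not be looked up without gene names. The worth of 1 read was taken as the most frequent log2 ratio, PCE over ACE, among clusters at 0.15 to 0.3 FPKM in ACE and above 0 in at most 4 libraries; this step, and log2 ratios with no pseudocount, were added after seeing the data. The estimate assumes that single reads are common at such levels.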

Additional observations from a re-analysis of the deposited data

How the results depend on the processing

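No paired analysis of replicates was possible because each group holds 1 library. In pairs of edges by time, the rule itself holds the 24 h and 48 h values of the late clusters low. Of 153 values recomputed under other settings, 110 stayed within 1.5 times of the reported one, and no median changed sign. Some of the 110 could not move. A minimum mean of 1 FPKM left the same 150 clusters, and lists of 100 and 300 clusters share members with the 150 by construction. The tally is therefore no measure of stability. Every setting compares the same PCE 72 h and ACE 72 h libraries, so a shared direction among settings is no support for the lean. The posterior lean kept its direction in all of them. The 5 other libraries do not enter the edge difference. When any 1 of them was left out of the score, 40% to 42.7% of clusters were higher and 2.67% to 6.0% lower in PCE (median 0.75 to 0.87). The size of the lean moved. PCE was lower in 0% with median-of-ratios scaling, whether clusters were chosen again or kept (median 1.54 when kept). It was lower in 9.33% when the mean had to reach 5 FPKM, and in 14% with the worth of 1 read taken out (median 0.39). Where the estimate holds, taking out that worth undoes the division by library size. The 14% and the 0.39 then describe estimated ratios of reads. Whether it holds for the late clusters was not tested. The worth of 1 read is a constant shift that moves all clusters alike. By construction it cannot change the excess of the late clusters over all clusters, so nothing is read from that excess about depth. Taken on FPKM + 1, a 1.5-fold bound gave 10% lower, and a 4-fold bound 16% higher and 0% lower. Neither bound was applied to all clusters.

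The signal outside 72 h, the control included, depended more on the settings. When the mean had to reach 5 FPKM, 37.3% of the 150 late clusters were kept, 37.3% were listed at 0 outside 72 h and 60% had at least 1 FPKM there. Above 0 were then 46% in the control, 26% in PCE 24 h, 43.3% in ACE 24 h, 38.7% in PCE 48 h and 49.3% in ACE 48 h. That minimum by its construction removes faint clusters. With a pseudocount of 0.1, 0% had at least 1 FPKM outside 72 h, and 2.0% were above 0 in the control, 0% in PCE 24 h, ACE 24 h and ACE 48 h, and 0.667% in PCE 48 h. With 100 clusters, 3.0% had at least 1 FPKM outside 72 h and 3.0% were above 0 in ACE 48 h. A value of at least 0.1 FPKM outside 72 h was seen in 8.67% and of at least 5 FPKM in 2.67%.

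Leaving out 1 library from the score admits clusters high in that library. Clusters kept then ran from 64% (without the control) to 84%, and those listed at 0 outside 72 h from 60% (without the control) to 76%. Those with at least 1 FPKM outside 72 h ran from 20% (without PCE 48 h) to 36.7% (without the control). Values above 0 ran from 4.0% to 38% in the control, 1.33% to 20.7% in PCE 24 h, 3.33% to 25.3% in ACE 24 h, 3.33% to 20.7% in PCE 48 h and 1.33% to 31.3% in ACE 48 h, each highest without the library itself. The number of reads per cluster is unknown, so neither a 0 nor a level near the bound has a counting interval.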
